A study of Mus musculus with 6 samples.

Results

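The Wnt genes of the mouse tibia were examined as a list of 53 protein-coding genes, chosen by symbol: 19 Wnt ligands, 4 R-spondins, 10 Frizzled receptors, 3 Lrp co-receptors, 3 Lgr receptors, 10 secreted antagonists and 4 genes for nuclear effectors and feedback. They were taken from 55401 gene identifiers, of which GENCODE M21 names 55141. The data were 6 libraries of polyadenylated tibia RNA from male mice of 8 weeks, 3 Atrx-cKO of the genotype Osterix-Cre; Atrxf/y and 3 control of the genotype Atrxf/y. Both groups carried the floxed *Atrx* allele, which encodes a chromatin remodeler. The Cre is driven by *Osterix* (*Sp7*) regulatory sequence in preosteoblasts and was held off with doxycycline until 3 weeks of age. It was present in every Atrx-cKO sample and in no control. In these libraries an effect of the transgene and an effect of *Atrx* loss therefore cannot be told apart. In other mice, with the Cre and intact *Atrx*, the paper reported no significant difference from floxed controls in trabecular measures, cortical thickness or tibial *Runx2*, *Col1a1* and *Ocn*. The question was whether the levels of these genes differ between the genotypes.

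Wnt proteins are secreted lipid-modified ligands that bind a Frizzled receptor together with the co-receptor Lrp5 or Lrp6. Binding protects β-catenin from degradation, and β-catenin then acts with Tcf and Lef factors in the nucleus. R-spondins, bound by Lgr receptors, raise the amount of receptor at the cell surface, whereas Dkk1, Wif1, Notum and the secreted Frizzled-related proteins restrain the signal from outside the cell. In bone, Wnt signaling favors osteoblast formation, and osteocytes hold it back by secreting sclerostin.

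Reads counted on genes ranged from 55178546 to 58029939 in Atrx-cKO and from 50977777 to 70571655 in control libraries. Levels are given as CPM, counts scaled to a common library size after TMM normalization, and levels of different genes are compared only as CPM per exonic kilobase. *Atrx* had 153, 166 and 171 CPM in Atrx-cKO replicates 1, 2 and 3 and 174, 166 and 165 CPM in the controls, a log2 fold change of -0.05 (standard error 0.08, edgeR adjusted p = 0.992). Reads from every exon and every cell type of the bone enter this value, so it does not check the deletion. By RT-PCR the paper reported less *Atrx* in Atrx-cKO tibias and a faint shorter transcript from the recombined gene. It attributed the remaining *Atrx* to cells or tissues outside the osteoblast lineage. Markers fit a tibia with marrow and attached tissue: all 8 osteoblast and all 6 osteocyte markers exceeded 3 counts in every library. The libraries of one genotype differed in makeup. Skeletal muscle markers summed to 11840 CPM in control 3 and to between 703.5 and 2378 CPM in the other 5 libraries, and osteoblast markers summed to 114700 to 118300 CPM in Atrx-cKO but to 108800, 185100 and 166200 CPM in controls 1, 2 and 3. In whole tissue, fewer cells of a type and less RNA per cell cannot be told apart.

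None of the 53 genes passed an adjusted p of 0.05 between Atrx-cKO and control tibias. The expression filter kept 44 of them, and edgeR's quasi-likelihood test, adjusted by Benjamini-Hochberg over all 20636 genes, called 0 of the 44, with a lowest adjusted p of 0.992. Over all genes 3 were called, 0.0145%. DESeq2's Wald test also called 0 of the list, where it called 0.142% of all genes. At an unadjusted p under 0.05 the edgeR fit held 7 of the 44, or 15.9%, against a background of 3.64% of all genes tested. *Sfrp1* was the one higher in Atrx-cKO (background 1.59%), and *Wnt5b*, *Wnt9a*, *Fzd2*, *Sfrp2*, *Sfrp4* and *Dkk1* were the 6 lower (background 2.05%). In 6 of the 44, or 13.6%, every Atrx-cKO library lay on one side of every control, against 8.31% of all genes, 1 of them as higher (background 4.3%) and 5 as lower (background 4.01%). These were the same genes without *Dkk1*. Of the 44 log2 fold changes 30 were below 0, with a median of -0.12, beside a median of 0.0050 over all genes tested, of which 48.8% were below 0. The 44 genes come from the same 6 libraries and are not separate observations, and whether these shares exceed the background was not tested. With 3 libraries against 3 an exact two-sided permutation test of a single gene cannot go below p = 0.1.

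**Figure D1:**
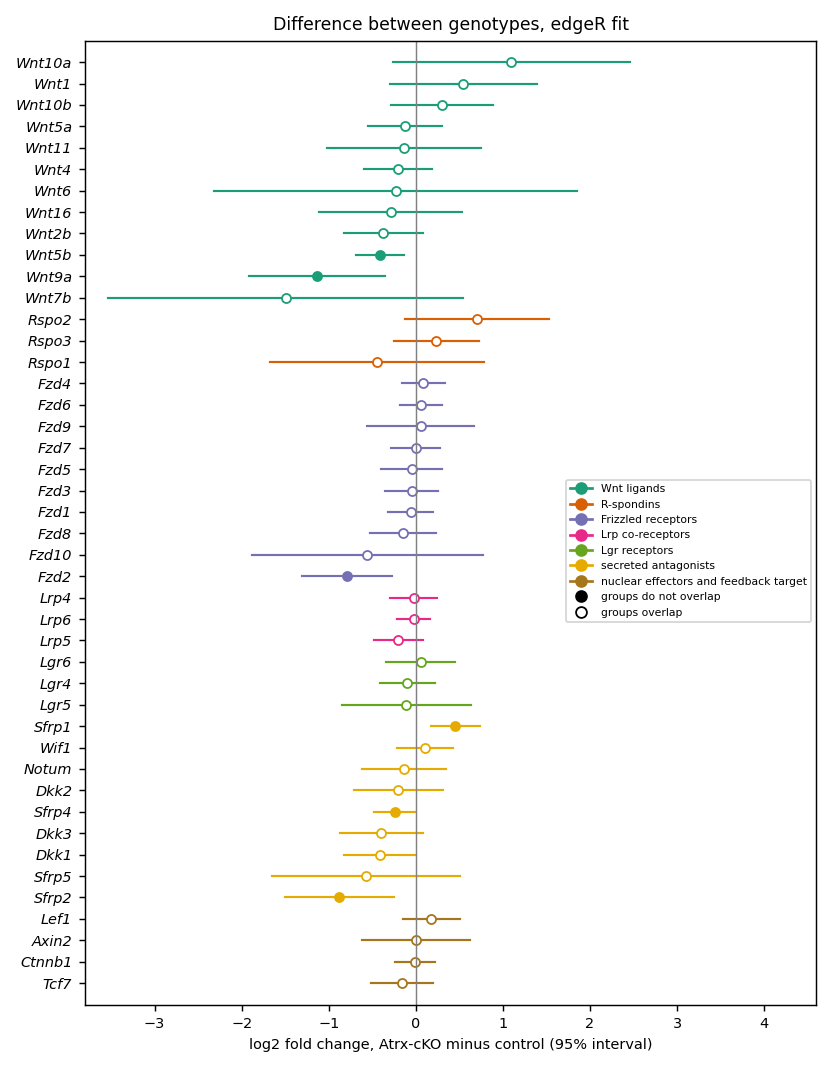
Log2 fold change (Atrx-cKO minus control, edgeR) of the 44 tested genes on the x axis, 1 gene per row, colored by role, with bars for 95% intervals and filled points where the 3 Atrx-cKO libraries do not overlap the 3 controls. The filled points are *Wnt5b*, *Wnt9a*, *Fzd2*, *Sfrp2* and *Sfrp4* to the left of 0 and *Sfrp1* to the right, and the widest intervals belong to weakly expressed genes such as *Wnt7b* and *Wnt6*.

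Of the 19 Wnt ligands, 12 were tested and 7 were too low. *Wnt3*, *Wnt3a*, *Wnt7a* and *Wnt8a* had at most 3 counts in every library, and *Wnt2*, *Wnt8b* and *Wnt9b* at most 8, 6 and 5. A count of 3, the limit that a count of 0 allows, is 0.0425 to 0.0588 CPM before normalization in the controls and covers counting error only. The most abundant ligand per exonic kilobase was *Wnt5b*, a noncanonical ligand known from cartilage, at 7.79 CPM per kilobase over all libraries. *Wnt4*, a ligand known for kidney and gonad development, followed at 7.74, with values of 6.37 to 8.30 in Atrx-cKO and 6.38 to 9.27 in control, so that the order of the first 2 is within the spread between libraries. *Wnt10b*, a canonical ligand that promotes bone formation, was at 5.55 CPM per kilobase. Below these were *Wnt5a* at 2.53 and *Wnt16*, a ligand linked to cortical bone, at 1.54, and the other 7 lay between 0.122 and 0.794.

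**Figure D2:**
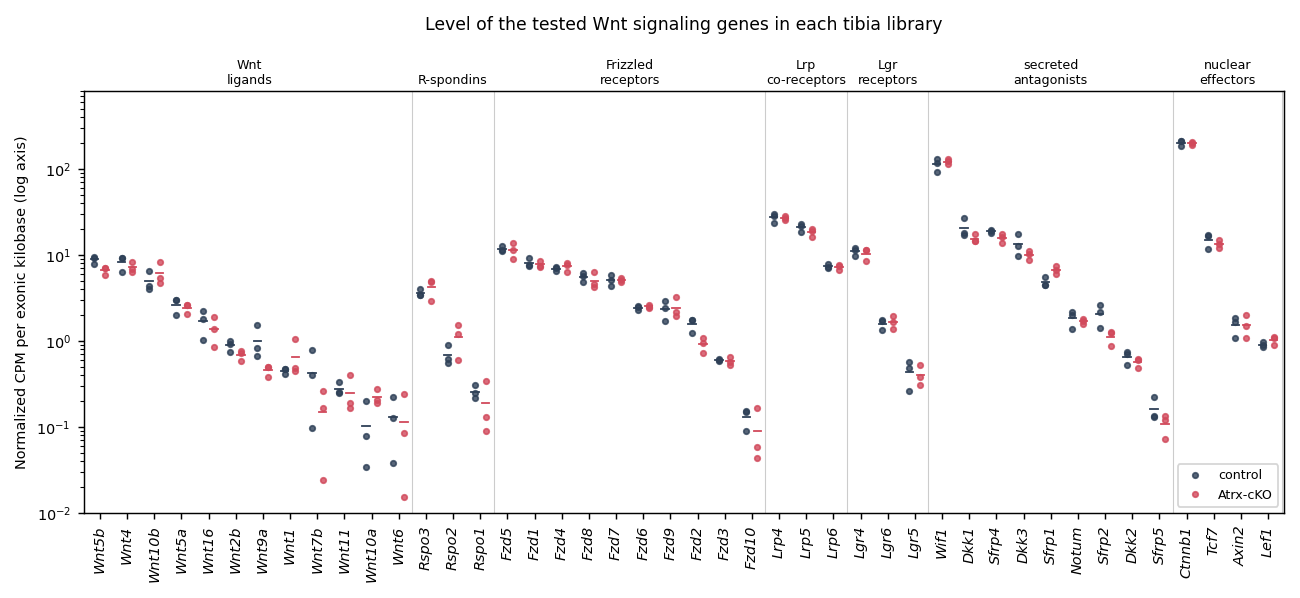
Level of the 44 tested genes in CPM per exonic kilobase on a logarithmic y axis, ordered by level within each role on the x axis, with 1 point per library and a short line at each group mean. *Ctnnb1* and *Wif1* stand at 202 and 117 CPM per kilobase over all libraries, above every ligand and receptor on the list, and the points of the groups are interleaved for most genes.

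*Wnt5b* (chromosome 6 from 119432531 to 119544347 of GRCm38, minus strand) had 15.6, 18.7 and 18.9 CPM in Atrx-cKO replicates 1, 2 and 3 and 21.0, 24.6 and 25.1 in control replicates 1, 2 and 3. Every Atrx-cKO value lay below every control value, and the highest Atrx-cKO and lowest control values were close to each other. The log2 fold change was -0.41 (95% interval -0.69 to -0.14, edgeR adjusted p = 0.992).

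*Wnt9a*, a ligand with a role in joint formation, lies on chromosome 11 from 59306928 to 59333552. It had 1.64, 1.26 and 1.65 CPM in Atrx-cKO and 2.75, 2.21 and 5.08 CPM in control replicates 1, 2 and 3. The groups did not overlap, and control 3, the library with the most muscle RNA, was far above the other 2 controls. The log2 fold change was -1.14 (95% interval -1.92 to -0.36, adjusted p = 0.992 in edgeR), and in fits without 1 library it ran from -1.36, without control 2, to -0.72, without control 3.

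The ligands next in level overlapped between the genotypes. *Wnt4* had 28.8, 26.7 and 34.8 CPM in Atrx-cKO and 26.8, 38.7 and 38.9 in control, with control 1 at the level of the Atrx-cKO libraries. *Wnt10b* had 15.9, 28.3 and 18.3 CPM in Atrx-cKO and 15.0, 13.8 and 22.0 in control, with its highest value in Atrx-cKO 2. *Wnt1*, a canonical ligand whose loss of function causes brittle bone and whose gene lies 11.7 kb from *Wnt10b* on chromosome 15, was also highest in Atrx-cKO 2, at 2.49 CPM against 0.987 to 1.15 in the other 5 libraries. Their log2 fold changes were -0.21 for *Wnt4* (95% interval -0.60 to 0.18), 0.30 for *Wnt10b* (-0.29 to 0.89) and 0.54 for *Wnt1* (-0.30 to 1.39). Without Atrx-cKO 2 those of *Wnt10b* and *Wnt1* were 0.01 and 0.04.

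The ligand with the largest fitted difference was among the least reproducible. *Wnt7b*, a ligand that promotes osteoblast differentiation, had 0.120, 0.805 and 1.29 CPM in Atrx-cKO and 0.473, 1.97 and 3.84 in control. The groups overlapped, the highest control was again control 3, and the 95% interval of the log2 fold change, -1.50, ran from -3.53 to 0.54. Leaving out 1 library moved the value of *Wnt7b* to between -2.16, without Atrx-cKO 3, and -0.74, without control 3. *Wnt10a*, whose loss affects teeth and hair, went the other way, with 0.513, 0.473 and 0.679 CPM in Atrx-cKO and 0.490, 0.195 and 0.0840 in control, a log2 fold change of 1.09 (-0.27 to 2.46). *Wnt6*, its neighbor 6.19 kb away on chromosome 1, was at -0.23 (-2.32 to 1.86). Without 1 library *Wnt10a* ran from 0.69 to 1.93 and *Wnt6* from -1.38 to 0.42. Both rest on few reads. *Wnt10a* had 30, 27 and 40 counts in Atrx-cKO and 28, 13 and 4 in control. *Wnt6* had 11, 30 and 2 counts in Atrx-cKO and 16, 33 and 4 in control. *Wnt1*, *Wnt7b*, *Wnt10a* and *Wnt6* fall outside the rule for named genes and were chosen after their values were seen.

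The R-spondins gave 3 tested genes, and *Rspo4* had at most 6 counts in any library. *Rspo3*, linked to bone mass in human populations, was the most abundant at 3.94 CPM per kilobase, with 8.99, 15.3 and 15.1 CPM in Atrx-cKO and 10.6, 10.5 and 12.5 in control. *Rspo2*, known from limb development, had 3.04, 7.86 and 6.23 CPM in Atrx-cKO and 2.80, 3.17 and 4.58 in control. In both genes Atrx-cKO 2 and 3 were above all controls and Atrx-cKO 1 was not, and the log2 fold changes were 0.23 (95% interval -0.25 to 0.72) for *Rspo3* and 0.70 (-0.12 to 1.53) for *Rspo2*. Without Atrx-cKO 2 they were 0.11 for *Rspo3* and 0.40 for *Rspo2*. *Rspo1* was low, with 0.667, 0.175 and 0.255 CPM in Atrx-cKO and 0.596, 0.420 and 0.483 in control, a log2 fold change of -0.45 (-1.68 to 0.79). It was -1.21 without Atrx-cKO 1 and -0.12 without Atrx-cKO 2.

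All 10 Frizzled receptors were tested. *Fzd5* was the most abundant at 11.6 CPM per kilobase, followed by *Fzd1* at 7.93 and *Fzd4* at 7.16, and *Fzd10* was lowest at 0.110. *Fzd5* had 62.0, 79.3 and 95.3 CPM in Atrx-cKO and 79.1, 76.6 and 88.2 in control. The lowest and the highest of its values were both in Atrx-cKO libraries, and 17.8% of its exonic bases are shared with *Gm38058* on the opposite strand. *Fzd1* had 30.1, 31.6 and 36.0 CPM in Atrx-cKO and 31.5, 31.9 and 38.5 in control, and *Fzd4*, also the receptor of norrin in the retina, had 42.8, 54.2 and 51.6 against 47.8, 43.4 and 48.7. For 8 of the 10 receptors the log2 fold change was within 0.25 of 0, among them *Fzd4* at 0.09 (95% interval -0.16 to 0.33) and *Fzd1* at -0.06 (-0.32 to 0.20, and 0.02 when only library totals were used for scaling).

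*Fzd2* (chromosome 11 from 102604396 to 102608058), a receptor of Wnt5a, was the only one of the 10 receptors whose groups did not overlap. It had 3.50, 3.92 and 2.66 CPM in Atrx-cKO and 4.50, 6.50 and 6.47 in control. No Atrx-cKO value reached a control value, with control 1 the lowest control. Its log2 fold change was -0.79 (95% interval -1.30 to -0.28, edgeR adjusted p = 0.992), and it stayed between -0.95 and -0.65 when any 1 library was left out. For *Fzd2*, DESeq2 gave an adjusted p of 0.201 over all libraries and at least 0.285 when any library but control 1 was left out. Without control 1 that adjusted p was 0.00435, in a DESeq2 fit that was not planned at the outset. That fit gave 2.84% of all genes an adjusted p under 0.05, and it also passed *Sfrp2*, *Wnt5b* and *Dkk3*, 4 of the list in all.

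The co-receptors were well expressed and close between the genotypes. *Lrp4*, which anchors sclerostin, was the highest at 27.1 CPM per kilobase, with 265, 300 and 283 CPM in Atrx-cKO and 245, 316 and 301 in control. *Lrp5*, whose mutations change bone mass in people, had 156, 195 and 186 CPM in Atrx-cKO and 181, 210 and 226 in control, and *Lrp6*, its close relative, had 92.0, 101 and 105 against 96.8, 107 and 99.2. The log2 fold changes were -0.02 for *Lrp4* (95% interval -0.29 to 0.25), -0.20 for *Lrp5* (-0.48 to 0.08) and -0.03 for *Lrp6* (-0.22 to 0.16). With library totals alone *Lrp4* and *Lrp6* were slightly above 0, at 0.06 and 0.05.

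Among the Lgr receptors, which bind R-spondins, *Lgr4* was the main one at 10.7 CPM per kilobase, with 49.7, 66.5 and 66.8 CPM in Atrx-cKO and 57.8, 67.0 and 70.9 in control. *Lgr6*, a marker of osteogenic progenitors, had 9.42, 11.4 and 13.3 CPM in Atrx-cKO and 11.7, 9.09 and 12.0 in control, and *Lgr5*, a stem cell marker of the gut, had 3.18, 3.90 and 5.39 against 4.92, 2.70 and 5.86. None of the 3 separated the groups, and the log2 fold changes lay between -0.11 and 0.06.

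The secreted antagonists held 4 of the 7 genes at an unadjusted p under 0.05 and 3 of the 6 whose groups did not overlap. These are 44.4% and 33.3% of the 9 tested, beside 3.64% and 8.31% of all genes. The 9 genes were read from the same libraries and are not separate observations. The most abundant antagonist, *Wif1*, which binds Wnt proteins directly, was not one of them. It was at 117 CPM per kilobase, with 274, 298 and 315 CPM in Atrx-cKO and 222, 316 and 284 in control, a log2 fold change of 0.11 (95% interval -0.21 to 0.43). *Dkk4* had at most 6 counts in any library and was not tested.

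The secreted Frizzled-related proteins resemble the ligand-binding part of a Frizzled receptor, and their genes differed in direction. *Sfrp1* (chromosome 8 from 23411502 to 23449632), an antagonist whose loss raises trabecular bone in mice, had 32.1, 28.9 and 26.1 CPM in Atrx-cKO and 19.7, 19.8 and 24.2 in control. All Atrx-cKO values were above all control values, and the gap between the closest libraries was small. The log2 fold change was 0.45 (95% interval 0.17 to 0.74, edgeR adjusted p = 0.992, DESeq2 adjusted p = 0.294).

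*Sfrp2* (chromosome 3 from 83766321 to 83774316) is strongly expressed by fibroblasts and mesenchymal progenitors. It had 2.68, 2.73 and 1.87 CPM in Atrx-cKO and 3.07, 5.58 and 4.72 in control, with all Atrx-cKO libraries below the controls and control 1 nearest to them. This gave a log2 fold change of -0.88 (95% interval -1.50 to -0.25, edgeR adjusted p = 0.992), and 16.1% of the exonic bases of *Sfrp2* are shared with *Gm26771* on the opposite strand. *Sfrp4*, whose loss thins cortical bone (chromosome 13, 19623104 to 19632994) had 67.3, 74.3 and 57.3 CPM in Atrx-cKO and 75.2, 82.0 and 78.4 in control. Atrx-cKO 2 nearly reached control 1, and the log2 fold change was -0.24, with a 95% interval from -0.49 to just below 0, and for *Sfrp4* without Atrx-cKO 3 it was -0.15.

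*Dkk1* (chromosome 19 from 30545863 to 30549665, minus strand) encodes a protein that blocks Lrp5 and Lrp6. It had 34.9, 35.6 and 42.2 CPM in Atrx-cKO and 64.9, 43.8 and 41.4 in control. The groups overlapped, since Atrx-cKO 3 was above control 3, and control 1 held by far the highest value. The log2 fold change was -0.41, and without control 1 it was -0.18, the value nearest to 0 among fits that left out 1 library.

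**Figure D3:**
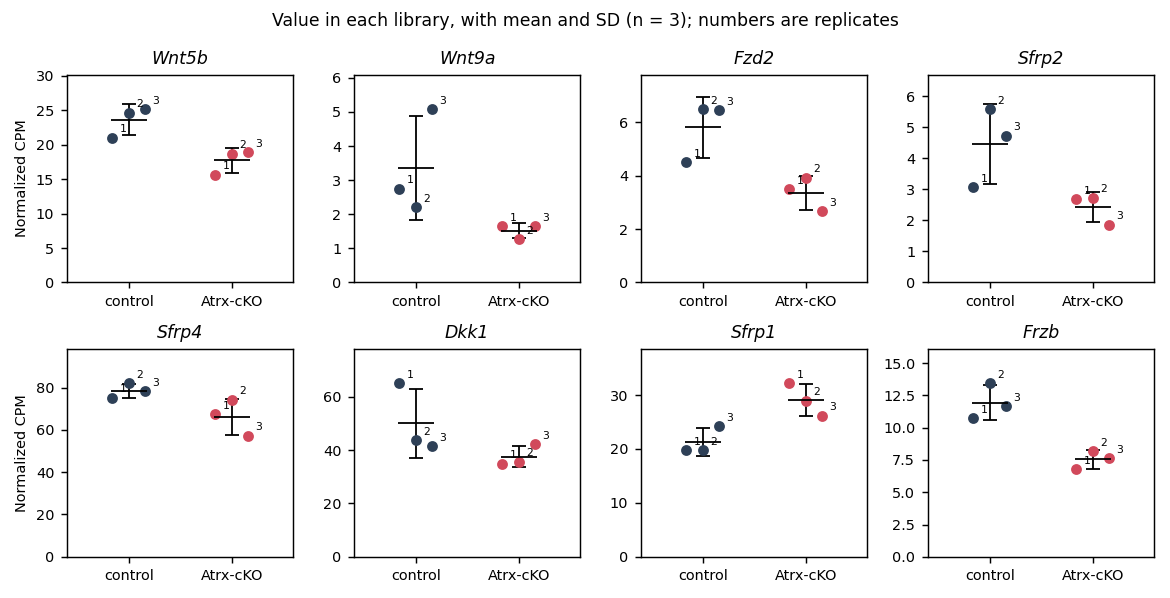
CPM in each library (y axis, from 0) for the 7 genes at an unadjusted p under 0.05 and for *Frzb*, with controls on the left and Atrx-cKO on the right of each panel, replicate numbers beside the points, and a bar and whiskers for the mean and SD (n = 3). Only *Dkk1* has overlapping groups, and control 1 is the lowest control for *Wnt5b*, *Fzd2*, *Sfrp2*, *Sfrp4* and *Frzb*.

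For the 4 nuclear effector and feedback genes, edgeR called 0 and 0 had an unadjusted p under 0.05, and DESeq2 called 0. *Ctnnb1*, which encodes β-catenin, had 202 CPM per kilobase, with 997, 1050 and 1079 CPM in Atrx-cKO and 964, 1094 and 1092 in control. Its log2 fold change was -0.01 (95% interval -0.24 to 0.22, and 0.07 with library totals alone), and 14.6% of its exonic bases are shared with *Ulk4* on the opposite strand. *Axin2*, the usual feedback target of β-catenin signaling, had 8.27, 11.0 and 6.02 CPM in Atrx-cKO and 6.03, 10.1 and 9.07 in control. The log2 fold change of *Axin2* was 0.00, with an interval from -0.61 to 0.62 that leaves room for a change of either sign. *Tcf7*, a nuclear partner of β-catenin also expressed in T cells, had 31.4, 35.5 and 39.2 CPM in Atrx-cKO and 30.8, 43.3 and 44.3 in control, a log2 fold change of -0.16 (-0.51 to 0.20), and *Lef1* was at 0.18 (-0.14 to 0.50).

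A pair of the genes at an unadjusted p under 0.05 have letters of the TCF/LEF motif, bound by the partners of β-catenin, close before an annotated RefSeq start, and these stretches are shown for that reason. The motif was searched as CTTTGAA or CTTTGTT or CTTTGAT or CTTTGTA on both strands of the 250 bases before each start in RefSeq on GRCm38.p6, a table that holds 34 of the 53 genes. At least 1 match was found for 5 of the 34 (*Dkk1*, *Fzd7*, *Lef1*, *Wnt11* and *Wnt5b*), in 5 of their 42 windows (11.9%), and 14.8% of all 32851 windows hold one. Of the genes at an unadjusted p under 0.05, *Fzd2*, *Sfrp1* and *Sfrp4* were absent from that table, and no match was found for *Wnt9a* or *Sfrp2*. Each sequence runs 5′ to 3′ on the strand of the gene, the minus strand, with the matches in capitals. The *Dkk1* stretch, chr19:30549586-30549615, covers 119 to 90 bases before the start and lies in an exon of the longer GENCODE model, and the *Wnt5b* stretch, chr6:119449439-119449468, covers 82 to 53 bases before 1 of 3 RefSeq starts and lies in an intron of the GENCODE gene.
Dkk1: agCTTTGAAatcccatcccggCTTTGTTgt
Wnt5b: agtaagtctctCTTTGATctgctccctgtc
*Dkk1* held 2 matches and *Wnt5b* 1. A match is a description of the letters, and binding was not measured in these libraries. The RUNX motif TGNGGTT, searched in the same way, matched in 4 of the 34 genes (*Dkk2*, *Lef1*, *Wnt4* and *Wnt9b*), in 5 of their 42 windows (11.9%), and in 12.6% of all windows.

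Much of the spread among the Wnt genes lay between libraries of one genotype. Control 3 was the highest library for 15 of the 44 genes and control 1 for 1, while Atrx-cKO 1 was the lowest for 16 and control 1 for 11. The median of the 44 genes on a log2 scale, relative to the control mean, was 0.14 in control 3, 0.04 in control 2 and -0.13 in control 1, and it was -0.22, -0.01 and -0.01 in Atrx-cKO 1, 2 and 3. Control 1 thus lay between Atrx-cKO libraries on this measure. Leaving out 1 library changed the sign of the fold change for 15 of the 44 genes. The median log2 fold change of the list ran from -0.18 without control 1 to -0.0052 without Atrx-cKO 1.

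**Figure D4:**
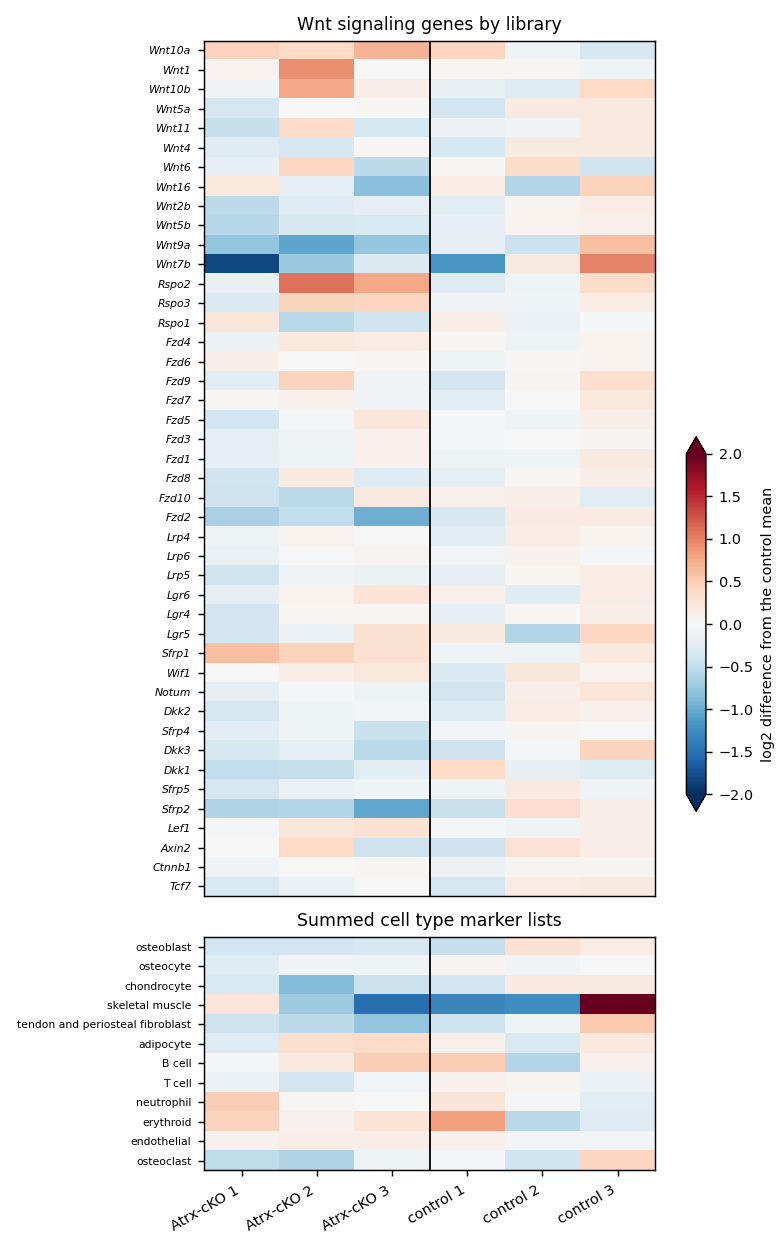
Log2 difference of each library (columns) from the control mean for the 44 tested genes (upper rows, by role and then by fold change, with 0.5 CPM added before the logarithm) and for the summed cell type marker lists (lower rows), with red above and blue below the control mean and colors ending at 2. Control 1 and the Atrx-cKO libraries share the blue of the osteoblast row, and control 3 is darkest red for skeletal muscle.

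Marker lists were also compared between the groups, and whether they follow the Wnt genes across libraries was not tested. The summed levels of all 12 marker lists overlapped between the groups. Markers of tendon and periosteal fibroblasts summed to 591.9, 550.0 and 460.7 CPM in Atrx-cKO and to 591.2, 733.3 and 1136 CPM in controls 1, 2 and 3, and all 6 had a log2 fold change below 0. All 8 osteoblast markers were also below 0, with a median of -0.27, as were all 6 osteoclast markers, with a median of -0.43. Of the skeletal muscle markers 9 of 10 were below 0, with a median of -1.56, and control 3 alone was high. Their sum was 801.6, 853.4 and 11840 CPM in controls 1, 2 and 3 and 2378, 1214 and 703.5 CPM in Atrx-cKO. All 8 erythroid and all 6 endothelial markers were above 0, with medians of 0.11 and 0.12, though the highest erythroid sum was in control 1 (6195 CPM). The other lists were mixed in sign. Below 0 were 4 of 6 osteocyte, 3 of 5 adipocyte, 3 of 7 chondrocyte, 2 of 6 T cell, 1 of 7 B cell and 1 of 8 neutrophil markers. The chondrocyte sum was 1102, 740.3 and 1003 CPM in Atrx-cKO and 1040, 1556 and 1535 CPM in controls 1, 2 and 3. Most of that sum was *Col2a1*, with a log2 fold change of -0.56. Markers of a list come from the same 6 libraries and are not separate observations. Each gene was then divided by the osteoblast sum of its library, a step added after the values were seen. That sum is mostly type I collagen RNA, with *Col1a1* at 53520 and *Col1a2* at 50160 of 108800 CPM in control 1. The log2 fold changes of these 2 were -0.40 and -0.42, and the other osteoblast markers ran from -0.51 for *Ibsp* to -0.09 for *Runx2*. After the division *Fzd2* and *Sfrp2* remained lower and *Sfrp1* higher in every Atrx-cKO library, whereas the groups of *Wnt5b*, *Wnt9a* and *Sfrp4* overlapped. Per 100000 CPM of osteoblast markers, *Sfrp1* was at 28.0, 25.1 and 22.1 CPM in Atrx-cKO and at 18.1, 10.7 and 14.6 in control. On this scale *Fzd2* was at 3.05, 3.40 and 2.25 in Atrx-cKO and at 4.14, 3.51 and 3.89 in control, and *Sfrp2* was at 2.34, 2.37 and 1.58 against 2.82, 3.02 and 2.84. In all 9 of the 44 genes separated the groups on this scale, 7 of them higher, where 10.9% of all genes tested were separated as higher and 0.577% as lower. The osteoblast sum was lower in every Atrx-cKO library than in controls 2 and 3. Dividing by it therefore favors a separation as higher over a separation as lower. The part of these cell types in the differences was not tested.

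The pathway was widened by 65 further genes, of which 61 were tested. EdgeR called 0, with 4 at an unadjusted p under 0.05 (6.56%, against 3.64% of all genes), and DESeq2 called 1, where it called 0.142% of all genes. That gene was *Frzb*, the third secreted Frizzled-related protein, known from joint cartilage, with 6.79, 8.19 and 7.65 CPM in Atrx-cKO and 10.7, 13.4 and 11.7 in control. Its groups did not overlap, and the log2 fold change was -0.66 (95% interval -0.98 to -0.34, edgeR adjusted p = 0.992, DESeq2 adjusted p = 0.0269). In DESeq2 fits without Atrx-cKO 1, 2 or 3 or without control 2 or 3, no gene of the 65 was called, where 0.193%, 0.111%, 0.195%, 0.114% and 0.11% of all genes passed. The log2 fold change of *Frzb* in those fits was -0.59, -0.73, -0.68, -0.57 and -0.69, and its DESeq2 adjusted p was 0.0771 to 0.327. Without control 1, *Frzb* was at -0.74 and passed (DESeq2 adjusted p = 0.00166), as did *Prickle1*, *Gja1* and *Bambi*, a decoy receptor for TGF-β ligands, as lower and *Daam1*, a formin, as higher, 5 of the 65 in all, where 2.84% of all genes passed. Relative to the osteoblast sum the groups of *Frzb* overlapped, on a scale where 0.577% of all genes tested were separated as lower.

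The other 3 were *Prickle1*, a planar polarity protein, at -0.34 (95% interval -0.64 to -0.05), *Daam2*, a formin that binds Dishevelled, at -0.22 (-0.42 to -0.02), and *Ccnd1*, a cell cycle gene and Wnt target, at 0.29. *Ccnd1* had 60.7, 44.2 and 46.9 CPM in Atrx-cKO and 42.5, 40.3 and 41.6 in control, with Atrx-cKO 1 well above the rest, and without that library its log2 fold change was 0.13. *Sost*, the sclerostin gene of osteocytes, had 95.6, 144 and 68.8 CPM in Atrx-cKO and 240, 63.8 and 64.4 in control. Control 1 alone was high, and the log2 fold change went from -0.26 over all libraries to 0.69 without control 1. The abundant genes *Serpinf1*, *Igfbp4*, *Gja1* and *Ccn4* had log2 fold changes of -0.09, 0.18, -0.36 and -0.22. By function, 0 of 6 genes for ligand processing and secretion, 1 of 15 other membrane receptors and regulators, 1 of 6 other inhibitors, 1 of 13 cytoplasmic components, 0 of 10 nuclear partners and 1 of 11 target genes had an unadjusted p under 0.05, where 3.64% of all genes did.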

How the data were processed

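Per the labels, strand-specific libraries were made after polyA selection from snap-frozen tibias. The authors deposited raw read counts per Ensembl gene, without normalization, and 5 summary entries per library that entered neither library sizes nor tests. The submitters' processing notes name GRCm38 and DESeq2, and the aligner, the counting program and its strand setting are not given in the sources used here. Genes were named and measured with GENCODE M21 on GRCm38, and reads of genes that overlap on opposite strands are uncertain (11 of the 53 genes, 3.15% to 38.1% of their exonic bases). Of the tallied reads, 51.6% to 52.4% lay on no feature and 42.8% to 43.8% on genes.

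Counts were fitted with edgeR 4.0.16 (TMM, filterByExpr, glmQLFit and glmQLFTest on genotype alone) in R 4.3.3, with 95% intervals from the same fit and Benjamini-Hochberg adjustment over all genes tested. DESeq2 1.42.0, other scalings and filters, a replicate block and fits without 1 library were the alternatives. Counts were simulated for the 20636 genes of this comparison, with 200 changed by a log2 fold of 2. EdgeR recovered 184 with 16 false calls and DESeq2 191 with 58. The fitted changes of the 44 tested genes were smaller, from -1.50 to 1.09, so this recovery does not show how often such changes are found. DESeq2 made more false calls than edgeR in this simulation, and *Frzb* was called by DESeq2 and not by edgeR. With 200 genes changed by a log2 fold of 2, the simulation does not show how likely that call is to be false. Libraries of 1 genotype differed by more than sampling noise (chi-square per degree of freedom 17.1 to 150). The sources do not say that each library came from a separate animal, so p-values measure the spread between these libraries.

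Members, gene lists and marker lists were chosen with earlier results of these data known. Named genes were the 3 most abundant per exonic kilobase of each role, those at an unadjusted p under 0.05, those whose groups did not overlap and, of the further genes, the 5 most abundant and those at an unadjusted p under 0.05. *Wnt1*, *Wnt6*, *Wnt7b*, *Wnt10a*, *Lef1*, *Dkk3*, *Daam1* and *Bambi*, and the promoters shown, were chosen after their values or matches were seen.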

Additional observations from a re-analysis of the deposited data

How the results depend on the processing

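EdgeR called 0 genes of the Wnt list under all scalings, filters, the replicate block and the 6 fits without 1 library, and DESeq2 called 0 over all libraries. Of the fits added after the data were seen, DESeq2 without control replicate 1 called 4 of the list and 5 further pathway genes, 516 genes in all. The other DESeq2 fits without 1 library called 0 of either list, and DESeq2 over all libraries 1 further pathway gene, *Frzb*. Over all genes edgeR called 3, with 10 without a filter, 1 with at least 10 counts in every library, 0 with the replicate block and 0 to 5 without 1 library, and DESeq2 called 37, with 40, 27 and 42 without Atrx-cKO replicates 1, 2 and 3 and 516, 25 and 26 without control replicates 1, 2 and 3. The count of the list at an unadjusted p under 0.05 was 6 to 12 over all fits, with 12 when control replicate 1 was left out, and the cause was not tested. The list's median stayed below 0 in every fit. Scaling by library totals alone gave -0.04 while moving the median of all genes to 0.08, and it turned *Fzd1*, *Fzd3*, *Fzd5*, *Lrp4*, *Lrp6* and *Ctnnb1* from below to above 0.

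Deviations of same-numbered libraries from their group means showed little correlation, at -0.03, 0.06 and -0.07. Differently numbered libraries were not compared, so these values do not settle whether the numbers pair the samples. With the replicate block the list's median was -0.11 and 0 genes of either list were called. Of the values of single genes under the alternatives set at the outset, 453 kept their side of the threshold or moved by less than the spread, 1 moved (*Sost*) and 1 passed (*Frzb* in DESeq2). The lowest edgeR adjusted p of either list was 0.992, so keeping that side of the threshold says little about stability. Leaving out 1 library changed the sign of the fold change for 15 of the 44 tested genes.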
